A study of Arabidopsis thaliana with 12 samples.

Results

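Leaves of Arabidopsis thaliana collected 16 h into the sampled day, at one of the time points titled dark, were compared with leaves collected at 8 h, the last time point titled light. The comparison rests on 4 arrays of the 12 in the series, the 2 titled dark 16 h and the 2 titled light 8 h, chosen by those titles. All plants were wild type Col-0, the reference accession, 30 days old, with no mutation or treatment in any group, and were kept at 22 °C and 65% humidity under 145 µmol per m2 per s of light. The growth protocol gives days of 8 h light and 16 h dark, whereas the series title speaks of continuous light, so light and dark are used as names from the sample titles. The labels do not say whether the 2 replicates of a time point came from separate plants, and the p-values hence reflect the spread between arrays, which may be technical.

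The plant clock is a loop of transcription factors that repress one another in turn. CCA1 and LHY are morning factors, the pseudo-response regulators PRR9, PRR7, PRR5 and PRR3 follow, and TOC1 acts in the evening. The loop sets the daily timing of many other genes in leaves, among them the cold-regulated COR genes and genes for responses to light and to abscisic acid. Long non-coding RNAs, such as the FLORE transcript that lies antisense to the flowering regulator CDF5, can also cycle with the day.

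The arrays carry 15013 probes for 5154 transcripts, most of them non-coding, read in 1 colour. In this text a level is the log2 processed signal of a transcript's brightest probe minus the 75th percentile of its array, so a difference of 1 is a doubling and levels of different transcripts are not set against each other. Differences are dark 16 h minus light 8 h. A transcript entered the comparison if the scanner software marked its probe as well above background on both 8 h arrays or both 16 h arrays, as held for 2597 of the 3302 transcripts in the model. "Higher" and "lower" name transcripts with a limma adjusted p (Benjamini-Hochberg) below 0.05. None of 22 marker genes fixed for leaf and other cell types has a probe among the transcript names, so the tissue label could not be checked, and in whole leaves fewer cells of a type and less RNA per cell cannot be told apart.

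The 4 arrays did not have the same quality. Well above background were 3983 and 6186 probes on the 8 h arrays, and 4735 and 7832 on the 16 h arrays. The second 16 h array had a median processed signal of 9.3, against 1.91 to 3.78 on the other 11 arrays, and a lowest signal of 1.5 against 0.756 to 0.818. Among the 2597 transcripts the first 16 h array lay at a median of 0.05 above the 8 h mean and the second at 0.47. That gap came with dim spots, since in the dimmest tercile the medians were 0.19 and 1.02 and in the brightest tercile -0.02 and 0.03. The 2 arrays of 16 h had a median gap of 0.50 between them, and those of 8 h 0.26. All 4 arrays were on the same slide, where both 8 h arrays lay in the first row and both 16 h arrays in the second, so slide row and time point cannot be told apart.

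**Figure D1:**
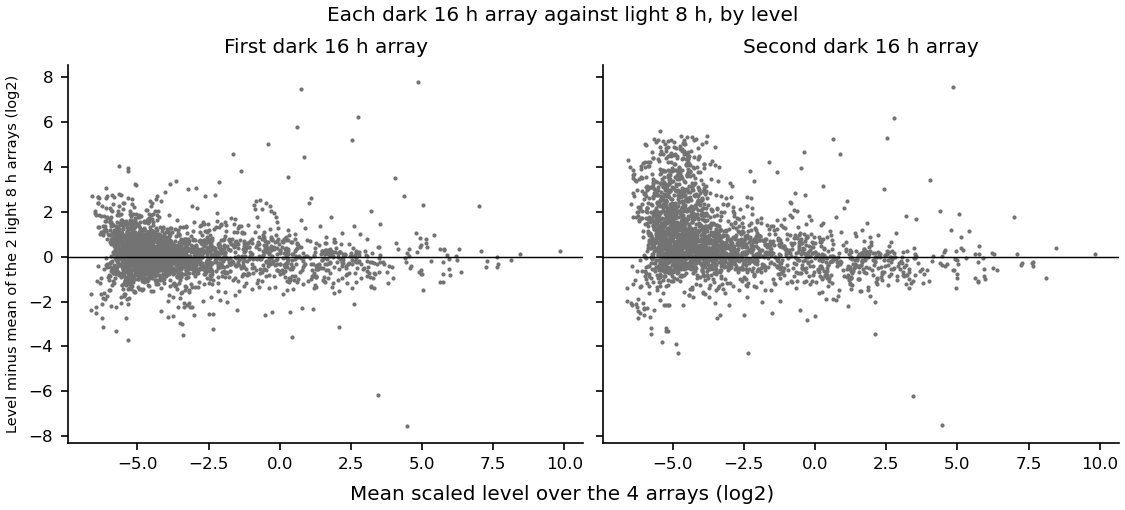
Level of each dark 16 h array minus the mean of the 2 light 8 h arrays (log2, vertical axis) against the mean level over the 4 arrays (log2, horizontal axis), with 1 point for each of 2597 transcripts. On the second 16 h array the dim transcripts to the left form a cloud above 0, with a median of 1.02 in the dimmest tercile, while the bright ones centre near 0 on both arrays.

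Of the 2597 transcripts, 281 differed between 16 h and 8 h, which is 10.8%. At 16 h 158 were higher (6.08%) and 123 were lower (4.74%), and the median difference over all 2597 was 0.25. With transcripts not well above background in 1 group taken at their lower bound, differences of at least 16-fold were found for 7 of the higher and 2 of the lower transcripts, and of at least 4-fold for 60 and 20. Among the 1863 transcripts well above background on all 4 arrays the rate was close to this, 206 transcripts or 11.1%, with 99 higher and 107 lower. The split between higher and lower depended on how arrays were scaled: 56.2% of the calls were higher with the scaling used here, and 31.8% to 44.2% with 5 other scalings. Under those the median difference of all transcripts moved to between -0.63 and 0.07. Of the 281 transcripts, 80 passed under all 5 other scalings as well, and 16 of these were higher and 64 lower. Single arrays moved the count as well. It was 844 without the first 16 h array, 167 without the second, 98 and 112 without the first and the second 8 h array, and 166 without either light 4 h array, which enters through the shared spread.

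**Figure D2:**
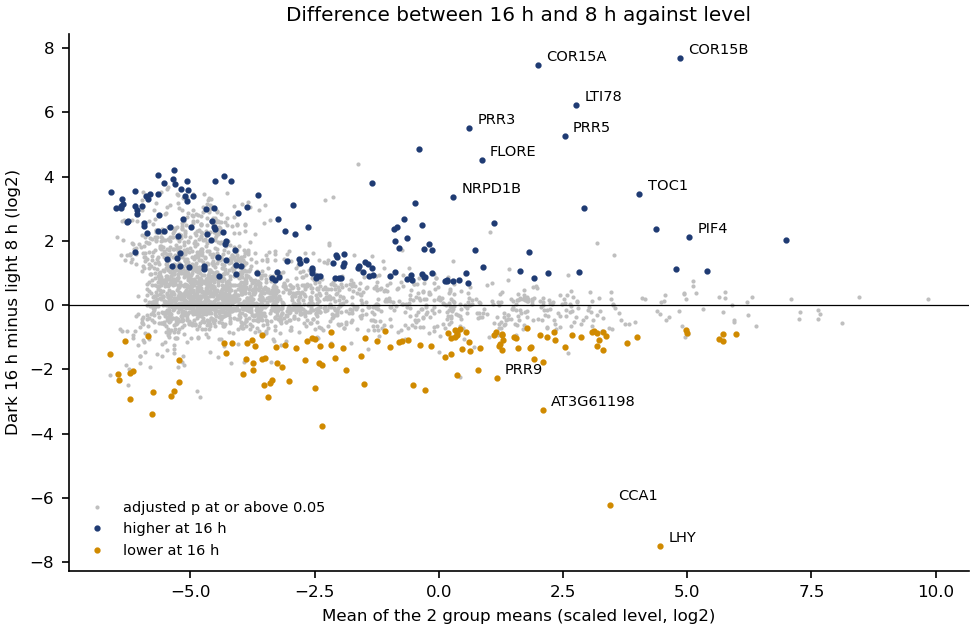
Difference between dark 16 h and light 8 h (log2, vertical axis) against the mean of the 2 group means (log2, horizontal axis) for 2597 transcripts, with higher transcripts in blue, lower ones in orange and the others in grey. The clock genes LHY and CCA1 lie lowest, at -7.51 and -6.21, and the cold-regulated COR15B lies highest at 7.68.

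The clock genes held the lowest differences of all. Of 13 clock genes listed, 8 are on the array, and 4 were higher and 3 lower at 16 h. Over all transcripts 6.08% were higher and 4.74% lower, and in the brightest tercile 9.47% and 10.4%. The clock differences had a range of -7.51 to 5.51 and a median of 1.29. LHY (AT1G01060), a morning MYB factor, had levels of 8.29 and 8.13 on the 8 h arrays and of 0.69 and 0.72 on the 16 h arrays. Its partner CCA1 (AT2G46830) stood at 6.55 and 6.54 at 8 h and at 0.37 and 0.32 at 16 h. For both genes the groups were far apart and the replicates nearly equal. LHY was 182-fold lower at 16 h (-7.51 ± 0.19, SE; limma adjusted p = 4.3e-07) and CCA1 73.8-fold lower (-6.21 ± 0.21, SE; limma adjusted p = 2.7e-06). Both lay between these levels at 12 h, with means of 4.85 and 4.75. At 0 h, on the other slide, their means were 4.09 and 0.84. At 4 h, also on the other slide, they were 8.01 and 6.48, close to the 8 h means of 8.21 and 6.55. Over the 6 time points both morning genes were thus highest at 4 h and 8 h, both titled light, with little between these. PRR9 had its lowest mean at 0 h (-2.85) and its highest at 12 h (4.05). How the titled hours map onto the day that the plants kept was not tested.

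The pseudo-response regulators, repressors of CCA1 and LHY that peak in sequence through the day, did not move together. PRR9 (AT2G46790), the first of the sequence, fell from 2.36 and 2.24 at 8 h to -0.02 and 0.08 at 16 h, a difference of -2.27 ± 0.18 (SE; limma adjusted p = 2.6e-04). PRR7, the next, was at 3.24 and 3.13 at 8 h and at 5.89 and 5.24 at 16 h, a difference of 2.38 ± 0.28 (SE; limma adjusted p = 0.0026). PRR9 was thus lower and PRR7 higher on both 16 h arrays, and at 12 h both had means above either time point, at 4.05 and 6.19. PRR5 (AT5G24470) rose from -0.15 and -0.04 to 5.13 and 5.19, which is 38.2-fold (5.25 ± 0.20, SE; limma adjusted p = 3.5e-06). PRR3 (AT5G60100) rose from -2.01 and -2.27 to 3.66 and 3.09, which is 45.6-fold (5.51 ± 0.25, SE; limma adjusted p = 1.2e-05). In neither gene did the groups come close to overlapping.

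TOC1 (AT5G61380), the evening member of the same family, had levels of 2.35 and 2.25 at 8 h and of 5.81 and 5.73 at 16 h, and was 11.1-fold higher (3.47 ± 0.17, SE; limma adjusted p = 1.6e-05). Its mean was still 5.29 at 20 h, whereas PRR5 had dropped to 1.79 and PRR7 to 1.95 by then. CHE, a repressor of CCA1 from the TCP family, stood at 4.01 and 4.08 at 8 h and at 4.41 and 4.09 at 16 h, and did not pass (0.20 ± 0.20, SE; limma adjusted p = 0.56). Of the 7 clock calls, 6 held under all 5 other scalings, and that of PRR7 ended when arrays were scaled over all probes (1.50, limma adjusted p = 0.12). Both scalings subtract 1 constant per array, so the PRR7 difference lies 2.13 above the median of all transcripts under either, by arithmetic.

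**Figure D3:**
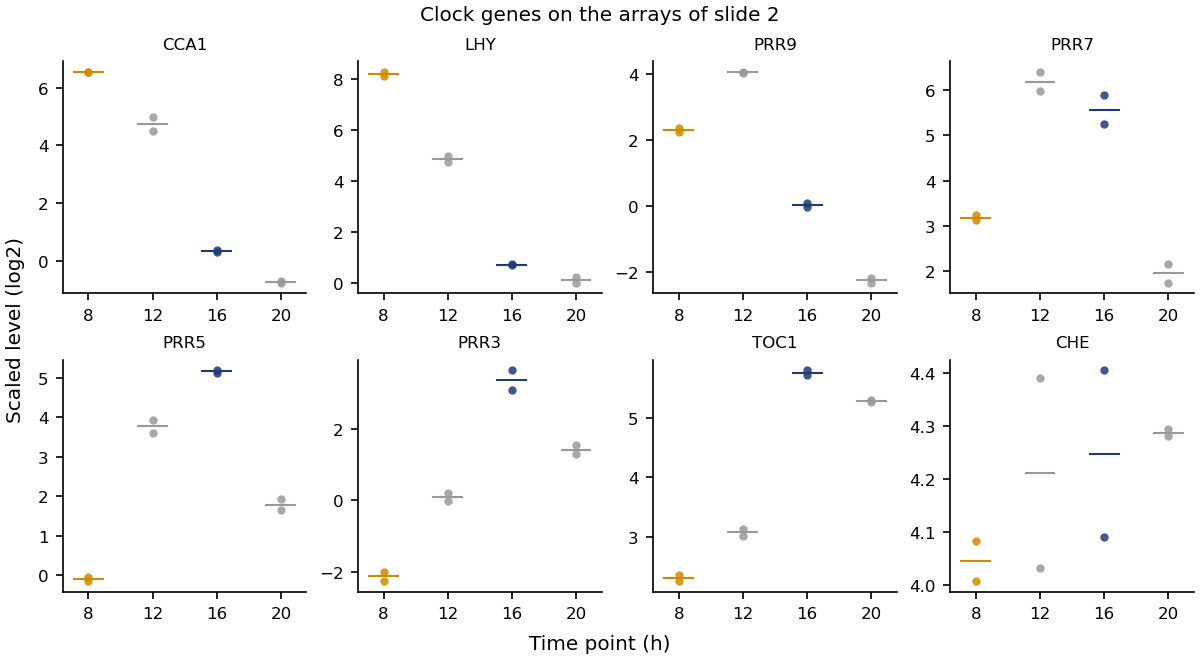
Scaled level (log2, vertical axis, with its own range in each panel) of the 8 clock genes at the 4 time points that share the slide (h, horizontal axis), with 1 point per array and a bar for the mean. Light 8 h is in orange, dark 16 h in blue and the other time points in grey. LHY and CCA1 drop to 0.70 and 0.34 at 16 h while PRR5, PRR3 and TOC1 are far above their 8 h levels.

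The cold and stress genes held the highest differences. These genes protect cells in cold and drought, and several are known to cycle under the clock. Of the 10 listed, 6 are on the array, 5 were higher at 16 h (COR15A on 1 array) and none was lower. The shares were 6.08% higher and 4.74% lower over all transcripts, and 9.47% and 10.4% in the brightest tercile. The median difference of the 6 genes was 4.21 against 0.25 over all transcripts. COR15B (AT2G42530), a protein of the chloroplast stroma that protects membranes, was at 1.00 and 1.03 at 8 h and at 8.79 and 8.60 at 16 h. LTI78 (AT5G52310), a stress protein induced by cold, drought and salt, went from -0.37 and -0.32 to 5.89 and 5.85. The replicates of both genes lay close together and the groups wide apart. COR15B was 205.3-fold higher (7.68 ± 0.18, SE; limma adjusted p = 3.9e-07) and LTI78 74.2-fold (6.21 ± 0.29, SE; limma adjusted p = 1.3e-05).

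COR15A (AT2G42540), the close relative and neighbour of COR15B, had levels of -1.95 and -1.54 at 8 h and of 5.73 on the first 16 h array. The scanner software flagged its spot on the second 16 h array as an outlier, this value was dropped, and the fitted difference of 7.47 ± 0.29 (SE; limma adjusted p = 1.6e-05) rests on 1 array at 16 h and takes its spread from the replicates of the other time points. The next brightest probe of COR15A, measured on both 16 h arrays, gave a difference of 8.04, and the next brightest of COR15B gave 7.93. The 2 genes are similar in sequence, and whether their probes also bind each other's transcript was not tested.

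COR47, a dehydrin, one of the proteins made when water is short, was at 6.04 and 5.90 at 8 h and at 8.22 and 7.77 at 16 h (2.02 ± 0.25, SE; limma adjusted p = 0.0028). KIN1, a small cold-induced protein, stood at -4.11 and -3.90 at 8 h and at -1.82 and -1.78 at 16 h (2.20 ± 0.19, SE; limma adjusted p = 5.3e-04). KIN1 has the near-identical copy KIN2, and its probes may not tell the copies apart. In both genes each 16 h array was above each 8 h array, but scaled over all probes neither passed, with 1.14 for COR47 (limma adjusted p = 0.20) and 1.32 for KIN1 (limma adjusted p = 0.12). LTI65, which responds to abscisic acid, had levels of -0.05 and -0.45 at 8 h and of 0.09 and 1.16 at 16 h. On this brightest probe it did not pass (0.87 ± 0.34, SE; limma adjusted p = 0.15). Its other 2 probes, well above background on all 4 arrays, gave larger rises of 3.16 and 3.34. On the next brightest probe LTI65 passed (limma adjusted p = 5.6e-05), so the result depends on the probe.

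By 20 h the cold genes had parted ways. LTI78 had dropped to a mean of 0.65, against 5.87 at 16 h and -0.35 at 8 h, and KIN1 to -4.70, below its 8 h mean of -4.00. COR15B had dropped from 8.70 at 16 h to 5.66, and COR15A from 5.73, on 1 array, to 3.97, both still above their 8 h levels. COR47 stood at 7.51, against 7.99 at 16 h.

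Genes of abscisic acid signalling, the hormone of drought and seed dormancy, gave 2 calls. Of 8 listed, 6 are on the array, 2 were higher and none lower, against 6.08% higher and 4.74% lower over all transcripts, and the median difference was 1.08 against 0.25. ABI5 (AT2G36270), a bZIP factor that carries out the hormone's response, rose from -0.21 and -0.12 at 8 h to 2.44 and 2.34 at 16 h (2.55 ± 0.18, SE; limma adjusted p = 1.6e-04). ABI2, a phosphatase that holds the pathway back, rose from 1.71 and 1.68 to 2.74 and 2.66 (1.01 ± 0.23, SE; limma adjusted p = 0.036). The groups did not overlap for either gene, yet scaling over all probes ended both calls, with 1.67 for ABI5 (limma adjusted p = 0.063) and 0.13 for ABI2 (limma adjusted p = 0.88), and leaving out single arrays ended that of ABI2 in 9 of 12 cases. The phosphatase ABI1 (0.37), the factors ABI3 (1.30) and ABI4 (1.15) and the ABI5 binding protein AFP1 (-0.33) did not pass, and ABI3 and ABI4 are dim transcripts, with higher levels on the second 16 h array than on the first.

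**Figure D4:**
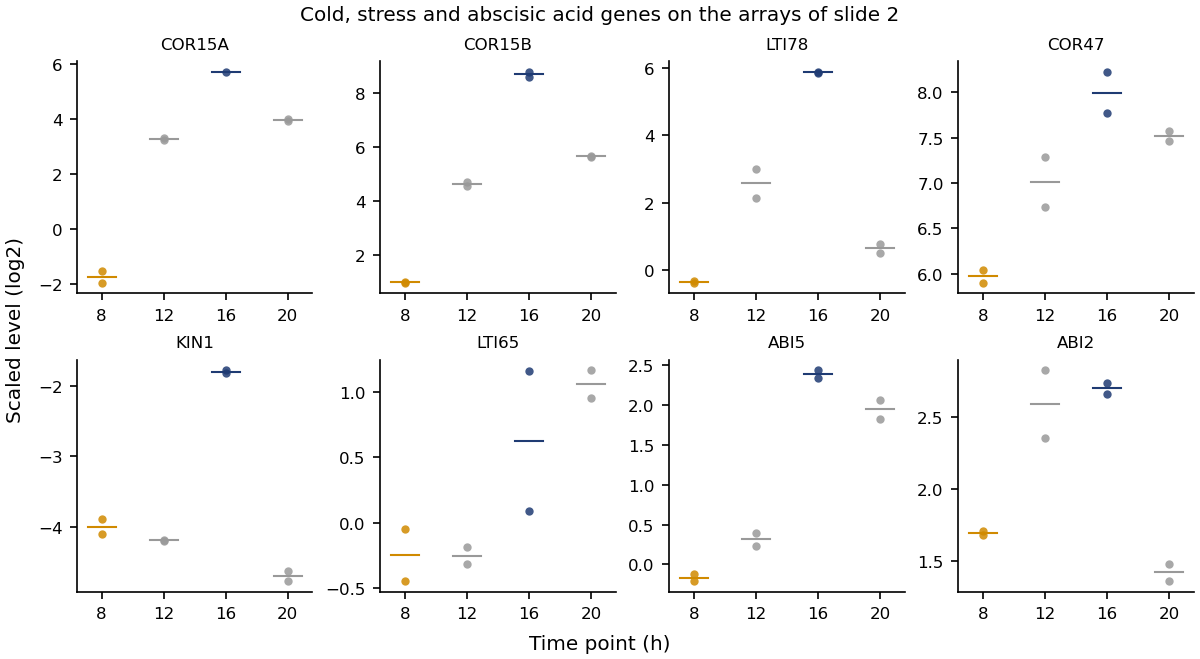
Scaled level (log2, vertical axis, with its own range in each panel) of cold, stress and abscisic acid genes at the 4 time points that share the slide (h, horizontal axis), with 1 point per array and a bar for the mean. Light 8 h is in orange and dark 16 h in blue. COR15A has 1 point at 16 h, at 5.73, and COR15B climbs from a mean of 1.01 at 8 h to 8.70 at 16 h.

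Light signalling genes gave 6 calls. Of 11 listed, 10 are on the array, and 5 were lower and 1 higher, against 10.4% lower and 9.47% higher in the brightest tercile of transcripts. Their median was -0.72 and their range -1.31 to 2.13. PIF4, a bHLH factor that promotes growth and is degraded through phytochrome in light, was the one that rose, from 4.07 and 3.90 at 8 h to 6.31 and 5.91 at 16 h (2.13 ± 0.21, SE; limma adjusted p = 9.9e-04). Its mean was 6.07 at 12 h and 4.09 at 20 h, so the 16 h level was near that of 12 h and the 20 h level near that of 8 h. Scaled over all probes PIF4 did not pass (1.24, limma adjusted p = 0.16).

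The related factors PIF5 and PIF3 were lower. PIF5 stood at 6.21 and 6.11 at 8 h and at 5.01 and 5.20 at 16 h (-1.05 ± 0.21, SE; limma adjusted p = 0.021). PIF3 stood at 4.48 and 4.49 at 8 h and at 3.54 and 3.42 at 16 h (-1.01 ± 0.18, SE; limma adjusted p = 0.014). HFR1, a bHLH protein that binds PIF factors and blocks them, went from 3.28 and 3.13 to 1.83 and 1.96 (-1.31 ± 0.20, SE; limma adjusted p = 0.0084). In all 3 genes both 16 h arrays lay below both 8 h arrays.

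The photoreceptors PHYA and PHYB, for far-red and red light, were lower by smaller amounts. PHYA was at 6.19 and 6.17 at 8 h and at 5.42 and 5.12 at 16 h (-0.91 ± 0.18, SE; limma adjusted p = 0.024), and PHYB at 3.81 and 3.65 and at 3.02 and 2.74 (-0.85 ± 0.20, SE; limma adjusted p = 0.042). Of the 6 light signalling calls, those of HFR1 and PIF3 held under all 5 other scalings, and that of PIF4 held in each fit without 1 array. The other 5 calls ended without the first light 8 h array, and without 1 array the highest adjusted p ran from 0.065 for HFR1 to 0.20 for PHYB. PHYA and PHYB each lost theirs under 3 scalings, PIF5 under 2. PIF1 (-0.15), COP1 (0.04), FHY1 (0.48) and HY5 (-0.60, limma adjusted p = 0.079) did not pass. Of the 3 probes of HY5, 2 gave -0.60 and -0.51. The other gave 2.55, with 8 h arrays that disagreed, at -3.82 and 1.62.

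The machinery of RNA silencing, which makes and uses small RNAs, gave 1 call among the 9 genes on the array of 12 listed, a share of 11.1% beside 10.8% over all transcripts. NRPD1B (AT2G40030), a subunit of a plant-specific RNA polymerase of RNA-directed DNA methylation, had levels of -1.79 and -0.98 at 8 h and of 2.18 and 1.76 at 16 h (3.36 ± 0.33, SE; limma adjusted p = 9.9e-04). Its brightest probe was higher on both 16 h arrays, but its 3 probes ranged from -0.57 to 3.36, so the probes disagree on the direction. The Dicer-like enzymes DCL1 (-0.25), DCL2 (0.00), DCL3 (0.32) and DCL4 (0.16), the Argonaute AGO2 (-0.42), the polymerase subunit NRPD1A (0.23) and RDR2 (0.25), which makes double-stranded RNA, did not pass. STRS1, a DEAD-box helicase, did not pass either (1.93, limma adjusted p = 0.17), with 8 h arrays at 0.88 and 3.57 and probes from -5.37 to 1.93.

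Protein-coding loci outside these lists that passed are few, and they are named here as a complete set. Higher at 16 h were FUS3 (2.43), a seed maturation factor, MEE25 (1.31), EDA3 (1.12), AT1G24148 (1.04), EDA18 (0.89) and NF-YA5 (0.76), a subunit of a CCAAT-binding factor. With arrays scaled over all probes none of these higher calls passed. Lower at 16 h were AT1G65481 (-2.17), the MYB factors MYB79 (-2.03) and MYB45 (-1.67), the stress factor WRKY40 (-1.40) and FHL (-1.37), which like FHY1 carries phytochrome A into the nucleus. The auxin transporter PIN3 (-1.19), the jasmonate repressors JAZ6 (-0.97) and JAZ5 (-0.79), the putrescine enzyme ADC2 (-0.91), the helicase STRS2 (-0.87), the NAC factor NAC080 (-0.84) and the auxin conjugate hydrolase IAR3 (-0.79) were lower as well. Without 1 array, the calls of JAZ6, JAZ5, ADC2, IAR3 and NF-YA5 ended in 9 of 12 fits, those of EDA18 and NAC080 in 5, that of STRS2 in 4, and those of PIN3 and MYB45 in 3. The AT1G24148 call ended in 2 of these fits, and those of FUS3, MEE25 and EDA3 in 1. ADC2 lost its call under 4 of the other scalings and JAZ6, IAR3 and NAC080 under 3, and the next brightest probe of JAZ6 gave -0.03. For FUS3, well above background on 1 of the 8 h arrays, the levels were -6.60 and -4.90 at 8 h and -3.48 and -3.16 at 16 h, and the call ended under all 5 other scalings.

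WRKY40 was at 2.04 and 1.91 at 8 h and at 0.61 and 0.54 at 16 h, and FHL at 1.17 and 1.14 and at -0.29 and -0.15. Both were lower on each 16 h array (limma adjusted p = 0.0048 and 0.0039), and both calls held under all 5 other scalings and in each fit without 1 array. MYB79 differed between its 8 h arrays, at -0.02 and -1.67, more than its 16 h arrays did, at -2.87 and -2.88, and its call ended in 8 of the 12 fits without 1 array. In all, 19 of the 91 protein-coding loci were higher (20.9%) and 20 lower (22.0%), against 6.08% and 4.74% of all transcripts. These loci were bright, with 87.9% of them in the brightest tercile, where 9.47% of transcripts were higher and 10.4% lower. How they were chosen for the array was not examined here.

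Annotated non-coding loci numbered 365, of which 33 were higher (9.04%) and 40 lower (11.0%), with 81.9% of them in the brightest tercile, so their shares lay close to those of transcripts as bright. FLORE (AT1G69572), the antisense partner of CDF5, was the annotated non-coding RNA with the largest difference. Its levels were -1.40 and -1.40 at 8 h and 3.05 and 3.19 at 16 h, and its mean was 3.41 at 20 h. It was 22.9-fold higher at 16 h (4.52 ± 0.17, SE; limma adjusted p = 3.5e-06), and its 3 probes agreed, at 4.52 to 4.64. CDF5 itself was not analysed here.

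The locus AT3G61198, known here by its locus code alone, had the largest fall among annotated non-coding loci. It stood at 3.89 and 3.56 at 8 h and at 0.61 and 0.30 at 16 h, and was 9.65-fold lower (-3.27 ± 0.22, SE; limma adjusted p = 1.2e-04). At 20 h its mean had returned to 3.31, so the low level lay between time points with higher ones. AT4G26255, whose nearest protein-coding gene is MIOX4, an enzyme that opens the ring of inositol, rose from -1.45 and -1.75 to 0.68 and 1.13 (2.51 ± 0.23, SE; limma adjusted p = 6.4e-04), and its call ended when scaled over all probes. AT1G53233, which overlaps the leaf development gene TCP3, went from -3.58 and -4.12 to -1.13 and -1.73 (2.42 ± 0.51, SE; limma adjusted p = 0.028). Its call ended under 3 of the other scalings and in 7 of the 12 fits without 1 array.

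Among the other large falls, several transcripts overlap a protein-coding gene. AT1G68568, annotated as an antisense RNA of AT1G68570, was at -2.01 and -2.36 at 8 h and at -4.27 and -4.79 at 16 h (-2.34 ± 0.33, SE; limma adjusted p = 0.0052). AT2G35945, which overlaps the homeodomain gene BLH1, went from 3.04 and 2.91 to 1.46 and 0.96 (-1.77 ± 0.23, SE; limma adjusted p = 0.0041). Smaller falls were seen for AT2G26692 (-1.63), AT2G21187.2 (-1.62) and AT4G17098 (-1.53), and all of these calls held under the 5 other scalings and in each fit without 1 array. Of the higher non-coding transcripts 69.7% overlap another locus and of the lower ones 72.5%, shares near the 68.3% of all 357 found in the gene table. The labels do not say whether probes were strand-specific in use, and signal from an overlapping gene was not tested.

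Of 15 known non-coding RNAs listed, 4 are on the array. Besides FLORE, ASCO, which binds regulators of alternative splicing, changed. It was at 3.84 and 3.81 at 8 h and at 2.51 and 2.61 at 16 h (-1.27 ± 0.17, SE; limma adjusted p = 0.0039), with means of 4.08 at 12 h and 3.71 at 20 h. TAS4 (0.43), a source of trans-acting small RNAs, and ELENA1 (0.73), an immune regulator, did not pass. Genes of the flowering list were not analysed here. The non-coding locus AT5G15845, named here after its values were seen because it overlaps the flowering gene CO, was lower at 16 h (-1.31 ± 0.22, SE; limma adjusted p = 0.012). Its call ended when the first or the second light 8 h array was left out, and with the arrays of this slide alone.

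MicroRNA precursors, the transcripts from which the short regulators of other mRNAs are cut, gave 13 calls. Of 173 on the array 108 entered, and 4 were higher (3.70%) and 9 lower (8.33%), against 6.08% and 4.74% over all transcripts, with a median difference of -0.02. Called in either direction were 12.0% of the precursors, near the 10.8% of all transcripts. The arrays measure the precursor and not the mature microRNA. MIR163, a precursor whose microRNA targets methyltransferase genes, was at 2.38 and 2.16 at 8 h and at 1.13 and 0.73 at 16 h (-1.34 ± 0.26, SE; limma adjusted p = 0.021). MIR850 was at 2.14 and 1.97 and at 1.00 and 1.07 (-1.02 ± 0.17, SE; limma adjusted p = 0.012). Both precursors were lower on each 16 h array, had lower means still at 20 h (-0.85 and -0.13), and were the 2 precursors whose calls held under all 5 other scalings. Without the first light 8 h array neither passed, with limma adjusted p of up to 0.12 for MIR163 and 0.085 for MIR850.

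Another 5 precursors measured on both sides were lower, namely MIR415 (-1.08), MIR160c (-1.02), whose family targets auxin response factors, MIR779 (-0.93), MIR157c (-0.92), of a family that targets SPL factors, and MIR171b (-0.84). Each of these 5 calls ended under 1 to 3 of the other scalings and in 5 to 9 of the 12 fits without 1 array. MIR159b, of a family that targets MYB factors, was higher, at -0.06 and -0.12 at 8 h and at 0.64 and 0.69 at 16 h (0.76 ± 0.17, SE; limma adjusted p = 0.032). It had the opposite sign when scaled over all probes (-0.13), and its call ended in 9 of the 12 fits without 1 array. MIR319b (1.41) and MIR852 (1.20) were well above background on 1 array of 8 h, and neither passed under any of the 5 other scalings. For the rest only bounds can be given, each set against the lowest signal well above background. On their brightest probes MIR838 was at least 2.75-fold lower and MIR399e at least 1.57-fold lower, neither probe well above background at 16 h. The other probes of MIR838, well above background on both 8 h arrays, gave smaller differences of -0.31 and -0.52, so its bound holds for 1 probe only. MIR847 was at least 4.36-fold higher and not well above background at 8 h. The MIR838 call ended under 2 of the other scalings, with a difference of -0.19 after normexp with the percentile, and in 11 of the 12 fits without 1 array. The MIR399e call ended under 2 scalings, with -0.08 and -0.11 after normexp, and the MIR847 call under all 5. Both calls also ended in 3 of the 12 fits without 1 array.

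**Figure D5:**
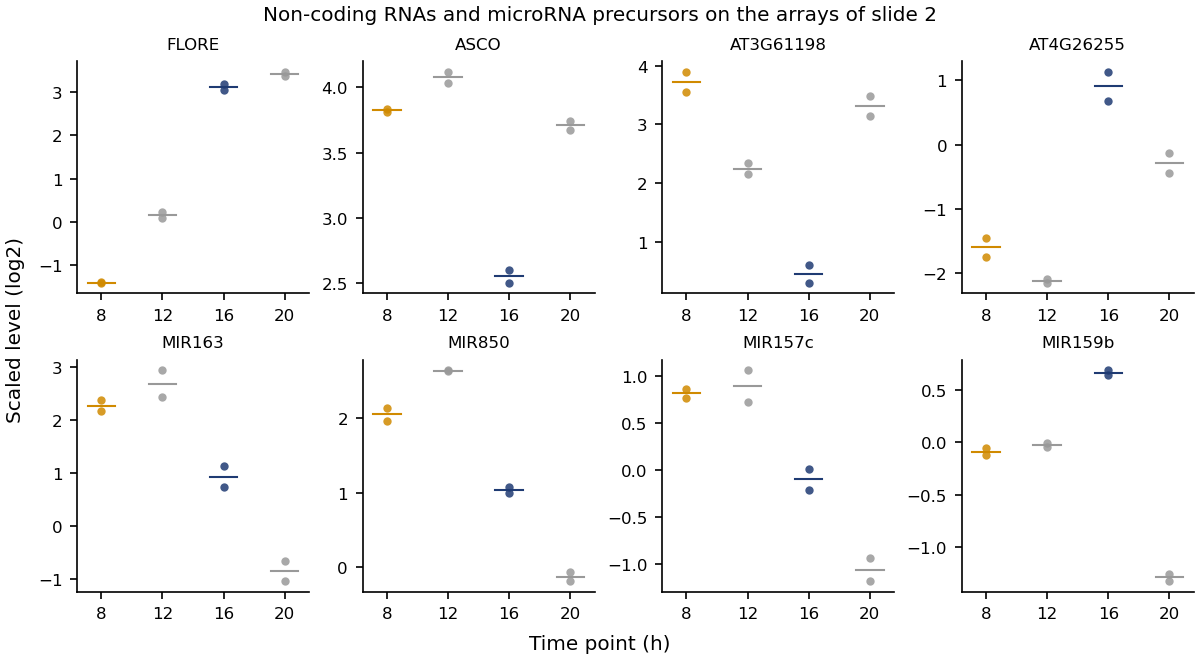
Scaled level (log2, vertical axis, with its own range in each panel) of 4 annotated non-coding RNAs and 4 microRNA precursors at the time points that share the slide (h, horizontal axis), with 1 point per array and a bar for the mean. Light 8 h is in orange and dark 16 h in blue. FLORE stays high at 20 h (mean 3.41), while AT3G61198 is lowest at 16 h (mean 0.45).

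Transcripts known only by a TU code, for which no table used here gives a name, made up 2033 of the 2597. Of these 102 were higher (5.02%) and 54 lower (2.66%), and their median difference was 0.34. AT3TU007380 rose from -3.15 and -3.34 to 0.56 and 0.53 (3.79 ± 0.20, SE; limma adjusted p = 2.2e-05). AT1TU058770 had 8 h arrays that disagreed, at -0.97 and -4.70, against 2.21 and 1.86 at 16 h (4.87 ± 1.00, SE; limma adjusted p = 0.025). AT1TU101330 fell from -0.44 and -0.51 to -3.71 and -4.76 (-3.76 ± 0.55, SE; limma adjusted p = 0.0069). AT3TU016140 fell from a mean of -2.01 to one of -4.87 (-2.86 ± 0.25, SE; limma adjusted p = 5.2e-04), though its next brightest probe gave 0.48. For AT1TU058770 and AT1TU101330 only 1 probe was well above background at 8 h or 16 h. The calls of AT1TU101330 and AT3TU016140 ended with the mean of all probes, and that of AT1TU058770 with the arrays of this slide alone.

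Some transcripts were detected at 1 of the time points only, so that their direction was fixed by the way they entered, and their counts are a description. Of the transcripts well above background on both 16 h arrays and on neither 8 h array, 154 in number, 40 were higher, 39 of them TU codes, by at least 2.01-fold to 15.1-fold. None of these 40 calls held under all 5 other scalings, and in the 154 the second 16 h array lay at a median of 3.45 above the 8 h mean and the first at 1.49. The part of the second array's raised dim spots in these calls was not tested. In the reverse case, well above background on both 8 h arrays and neither 16 h array, 12 of 60 transcripts were lower.

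At 12 h and at 20 h, most called transcripts had means between those of 8 h and 16 h. Of the 158 higher ones, 103 had a 12 h mean between the 8 h and 16 h means, and 116 had a 20 h mean between them, while 9 went on to a 20 h mean above that of 16 h. Of the 123 lower ones, 72 lay between at 12 h and 72 at 20 h, and 30 were lower still at 20 h. These counts are a description, since the 8 h and 16 h means that chose the transcripts also set the range.

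Both 16 h arrays lay on the same side of both 8 h arrays for 1510 transcripts, 58.1% of all, so that such a separation alone is common in this comparison. Fitted on the 8 arrays of this slide alone, 79 transcripts passed, among them all 7 clock calls, all 5 cold and stress calls, 1 of the 6 light signalling calls (PIF4) and none of the 13 precursor calls. Fitted on the 4 arrays of the comparison alone, with 2 residual degrees of freedom, the test called 5 transcripts: LHY, CCA1, COR15B, LTI78 and PRR5. A set of 42 calls held both under the 5 other scalings and in each of the 12 fits without 1 array, 13 of them higher and 29 lower. It includes LHY, CCA1, PRR9, PRR5, PRR3, TOC1, COR15B, LTI78, FLORE, ASCO, WRKY40, FHL and AT3G61198.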

How the data were processed

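Per the file headers, the authors quantified the 12 arrays in Feature Extraction 10.5.1.1 from Agilent, whose deposited spot intensity (processed, median and background signal) is linear. Per the labels, 0.5 µg of RNA was labelled with Cy3. The authors' deposited table gives log2 values for these probes, made by a method not given in the sources used here. From the log2 processed signal of an array its 75th percentile was subtracted, taken over the 2876 probes that passed the background mark on each of the 12 arrays; 536 control spots and outlier spots were dropped. Each transcript took the probe with the highest mean log2 signal. One mean per time point was fitted over all 12 arrays with limma 3.58.1 in R 4.3.3 (lmFit, eBayes, 6 residual degrees of freedom) to the 3302 transcripts well above background on both arrays of any time point, and p-values were adjusted over these by Benjamini-Hochberg. The number of arrays limits the precision. The code was tested on simulated data.

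The gene lists and the members were chosen with earlier results of these data known. Named were the list members on the array, the 12 largest annotated rises and falls measured on both sides, bounds apart, called microRNA precursors, and 2 TU codes each way; the other called protein-coding loci and AT5G15845 were added after their values were seen. Symbols and neighbours came from the TAIR10.1 gene table, which held 400 of 405 loci; the arrays name an older build, so no coordinates are given. As the files hold no mean signal, the normexp alternatives used the median signal, with an offset of 50. No sequences were available for a planned description of promoters, which was not run.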

Additional observations from a re-analysis of the deposited data

How the results depend on the processing

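The 281 calls (158 higher, 123 lower) came to 239 (76 and 163) with the percentile taken over all probes, 259 (98 and 161) after quantile normalization, 215 (95 and 120) and 415 (173 and 242) after normexp with the percentile and with quantiles, and 259 (101 and 158) in the deposited log2 table. These fits shared 157, 191, 158, 204 and 192 calls with the 281. The arrays of the same slide alone gave 79, the 4 arrays of the comparison alone 5 (423 at an unadjusted p below 0.05), array weights 78, and no filter on dim probes 126. Leaving out 1 array in turn gave 98 to 844 calls. The count was 844 without the first dark 16 h array, 81.0% of them higher, and 167 without the second, 43.7% of them higher. It was 98 and 112 without either light 8 h array, and 166 without either light 4 h array. Fits with a trend, over the transcripts above background at 8 h or 16 h, over those above background on all 4 arrays, with the mean of all probes, and, chosen after seeing the data, with the next brightest probe gave 418, 402, 335, 254 and 289.

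Of the 281 calls, 17 had the opposite sign with the percentile over all probes, 10 with the mean of all probes, 1 after each normexp setting, and 9 of 192 with the next brightest probe. Among the called transcripts named here the sign reversed for NF-YA5 (-0.12) and MIR159b (-0.13) with the percentile over all probes, for MIR852 (-0.05) after normexp with quantiles, and for AT3TU016140 (0.48) with the next brightest probe. The cause was not tested. Arrays with the same replicate number did not deviate together (correlations of -0.10 to 0.19 over 15 pairs of time points), and a replicate block gave 269 calls, 251 of them shared. Of 121 called annotated transcripts with several probes above background, 3 had probes of opposite sign. Dim transcripts are limited by signal over background.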
